A study of Mus musculus with 2 samples.

Results

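B16 melanoma barcodes that had passed a sort for CD45+ cells were found in both scRNAseq libraries, 47 with the LAIR1 antagonist antibody h219-LLG and 46 with the control antibody. They were chosen by measured counts of unique molecular identifiers (UMIs, tags that each mark 1 captured RNA molecule). A barcode was a member if it had at least 500 UMIs, at least 200 genes, under 10% mitochondrial UMIs, at least 2 UMIs summed over the pigment genes Pmel, Mlana, Dct and Tyrp1, and no UMI of Ptprc, Cd3e, Cd79a and Csf1r. Ptprc encodes CD45, the protein the sort was made on, and the other 3 mark T cells, B cells and macrophages. The 93 members were drawn from 14940 barcodes, of which 13040 (7433 with h219-LLG and 5607 with control) met the limits on depth and mitochondrial UMIs and are called kept barcodes here.

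The cells came from B16 tumors grown under the skin of Vav-cre human LAIR1 transgenic, mLAIR1-/- C57BL/6 mice aged 6 to 8 weeks, in which Vav-cre turns on the human receptor in blood-forming cells and their progeny and the mouse receptor is absent. Both libraries shared this genotype, and they differed in the antibody, h219-LLG in one and the isotype control in the other. In the methods for this tumor model, mice received 3 doses of antibody at 10 mg/kg, the first on day 5 and 1 every 4 days after it, and tumors were taken on day 16. How many mice were pooled is not stated in the sources used, and with 1 library per condition there was no replicate and no test. All intervals below are 95% intervals that cover counting error only, exact for shares (Clopper-Pearson), for counts per 1000000 UMIs (CPM, Poisson) and for ratios of CPM (binomial split of the counts), and on a log scale for the ratio of the shares of barcodes.

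B16 is a pigmented melanoma line of C57BL/6 mice. In melanocytes and in melanoma cells that keep the lineage, the transcription factor Mitf turns on genes of the melanosome, the organelle in which melanin is made. Tyr starts melanin synthesis, Dct and Tyrp1 act on later steps, Pmel forms the fibrils on which melanin is laid down, and Mlana is a melanosomal membrane protein that Pmel processing needs. Melanoma cells do not make CD45, so a CD45 sort is meant to leave them out.

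Because the members were chosen on targets of Mitf, the stretches that hold its M-box in the promoters of Tyrp1, Dct and Tyr are shown, taken from RefSeq windows on GRCm38.p6 that run from 250 bases before to 50 bases after each start. The capitals mark the searched letters, TCATGTG or, where the site lies on the opposite strand, CACATGA. These letters contain the E-box CATGTG.
Tyrp1: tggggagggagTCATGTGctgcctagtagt
Dct, nearer site: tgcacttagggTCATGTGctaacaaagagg
Dct, farther site: cttggctgggaCACATGAgcccaataaaga
Tyr: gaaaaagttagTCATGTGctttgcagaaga
The Tyrp1 stretch lies at chr4:80834155-80834184 on the plus strand, with the first base of the letters at position -47 from the RefSeq start. In GENCODE vM21 it falls in a noncoding stretch of a Tyrp1 exon (80834123 to 80834401). The Dct stretches lie at chr14:118052379-118052408 and chr14:118052460-118052489 on the minus strand, at positions -151 and -232. The Tyr stretch lies at chr7:87493516-87493545 on the minus strand, at position -22, and no GENCODE gene covers it or the Dct stretches. Of the 30 pigment and melanocyte genes followed here, 20 had a window, and 7 of their 26 windows (26.9%) held the letters on either strand, against 1239 of all 32851 windows (3.77%). The other genes with a match were Mc1r, Slc24a5, Trpm1 and Tspan10. A match is a string of letters and not a measured site.

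Melanoma barcodes were 0.632% (0.465 to 0.840) of kept barcodes with h219-LLG and 0.820% (0.601 to 1.09) with control. The ratio of these shares was 0.771 (0.514 to 1.16), an interval that holds 1. Ptprc decided most of the membership among pigmented barcodes. Of 106 kept barcodes with at least 2 pigment UMIs in the h219-LLG library and 110 in the control library, 59 and 64 were left out for an immune UMI, and 57 and 61 of those held Ptprc. Only 4 and 6 of them were left out for a single immune UMI. From the other side, 177 kept barcodes with h219-LLG and 188 with control had no UMI of the 4 immune genes, and 26.6% and 24.5% of these were members. No member's barcode sequence occurred in both libraries, although 13 of all barcodes did.

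The members were shallow. Their median depth was 1240 UMIs (range 502 to 74683) with h219-LLG and 927.5 UMIs (518 to 9302) with control, while other kept barcodes had medians of 5071 and 5827 UMIs. A single h219-LLG barcode with 74683 UMIs and 7509 genes held 53.1% of all member UMIs of its library. The next deepest h219-LLG member had 7760 UMIs, and the deepest control member, with 9302 UMIs, held 13.1% of its library's member UMIs. Sums over the h219-LLG members therefore describe this 1 barcode as much as the other 46 together, and ratios between libraries that turn or move by much are also given without the deepest member of each library. Summed over members there were 140677 UMIs (h219-LLG) and 70854 UMIs (control), and without the deepest members 65994 and 61552.

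**Figure D1:**
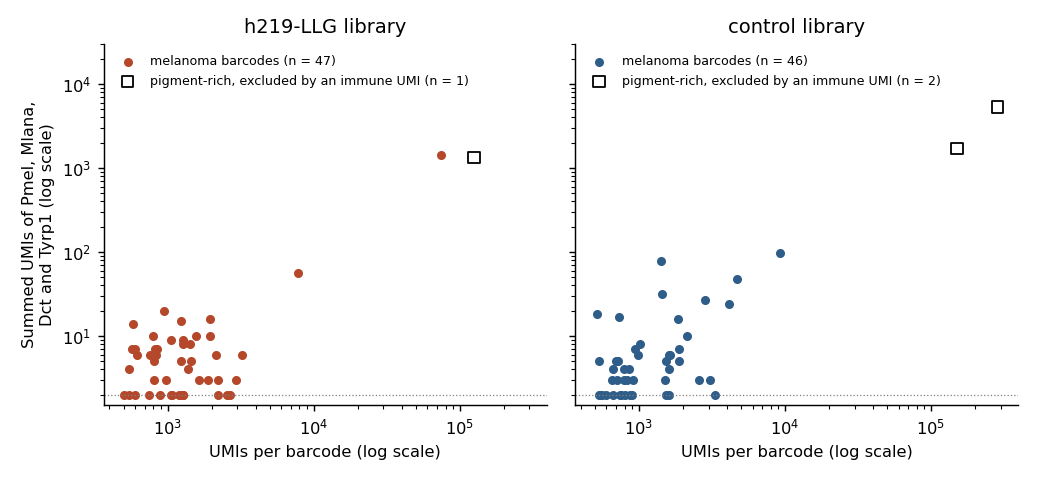
UMIs summed over Pmel, Mlana, Dct and Tyrp1 against all UMIs of each barcode, both on log axes, for the h219-LLG library (left) and the control library (right), with the dotted line at the minimum of 2 pigment UMIs. Filled points are the 47 and 46 melanoma barcodes, and open squares are barcodes with at least 1000 pigment UMIs that a UMI of an immune gene left out, 1 with h219-LLG and 2 with control.

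The pigment genes chose the members, so their levels are a description. The pigment sum per member had its median at 5 UMIs in h219-LLG members and 4 in control members, and 14 and 13 members stood just inside the threshold at 2 UMIs. Just outside it, 12 and 26 kept barcodes without an immune UMI had a pigment sum of 1. A sum of 20 or more was reached by 3 members with h219-LLG, up to 1416 UMIs, and by 6 with control, up to 96 UMIs. All 4 pigment genes were seen in 8 and 6 members, and 8 and 11 members rested on a single pigment gene.

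Dct had the most UMIs of the 4 in both libraries. With 3' end counting a molecule is counted once whatever its length, so UMIs need no correction for length, but other differences in capture between genes were not measured. Dct (chr14:118012790-118052244 on mm10, minus strand) made up 52.5% of pigment UMIs with h219-LLG and 52.0% with control. It stood at 6447 CPM (907 UMIs in 34 members) with h219-LLG and 3641 CPM (258 UMIs in 32 members) with control. Mlana (chr19:29697824-29708634, plus strand) was seen about as widely as Dct, in 35 of 47 members at 1699 CPM with h219-LLG and in 30 of 46 at 1468 CPM with control. Pmel (chr10:128704195-128720238, plus strand) and Tyrp1 (chr4:80834123-80851719, plus strand) were seen in fewer members. Pmel stood at 2580.4 CPM in 23 members with h219-LLG and at 861 CPM in 19 members with control. Tyrp1 stood at 1557 CPM in 20 members with h219-LLG and at 1030.3 CPM in 25 members with control.

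The deepest h219-LLG barcode carried most of these differences. It held 88.2% of the Pmel, 59.0% of the Mlana, 85.0% of the Dct and 84.0% of the Tyrp1 UMIs of the h219-LLG members, whereas no control member held more than 22.5% of any of them. The ratio h219-LLG over control over all members was 2.997 (2.28 to 3.999) for Pmel, 1.77 (1.54 to 2.04) for Dct, 1.51 (1.15 to 2.00) for Tyrp1 and 1.16 (0.916 to 1.47) for Mlana. Without the deepest member of each library it was 0.704 (0.462 to 1.06) for Pmel, 0.631 (0.504 to 0.788) for Dct, 0.535 (0.343 to 0.824) for Tyrp1 and 1.13 (0.832 to 1.53) for Mlana. The direction for Pmel, Dct and Tyrp1 thus turned with 1 barcode in each library, and that for Mlana did not. Without the deepest members, 1 control barcode held 28.9% of the Dct UMIs of the control members.

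Genes of the melanocyte lineage that the rule did not use were present too, which bears on the label. Of a list of 26 such genes, 24 had a UMI in the members of at least 1 library, and the list summed in h219-LLG members to 4848 CPM (4491 to 5226) and in control members to 2738 CPM (2366 to 3152). In other kept barcodes it summed to 144 and 201 CPM. A UMI of the list was seen in 45 of 47 members with h219-LLG and 43 of 46 with control. After each barcode had been thinned to 500 UMIs, the list was seen in 72.3% (57.4 to 84.4) and 82.6% (68.6 to 92.2) of members. At the same depth it was seen in 3.54% and 4.72% of T cells, in 12.5% and 11.5% of myeloid cells (at least 2 UMIs of Csf1r and none of Cd3e or Cd79a) and in 14.3% and 24.6% of other kept barcodes under 2000 UMIs.

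At least 50 UMIs over the members of both libraries, the minimum set for measuring a gene alone, were reached by 6 genes of the list, and each stood over 4-fold above other kept barcodes in both, as did 16.6% of all 579 measured genes. Mitf had 434 CPM (61 UMIs in 18 members) with h219-LLG and 437.5 CPM (31 UMIs in 20 members) with control, a ratio of 0.991 (0.633 to 1.58), and of 0.993 without the deepest members. It was the most evenly spread of the 6 between the libraries. Gpnmb, a melanosomal and lysosomal glycoprotein, had 1031 CPM with h219-LLG and 522 CPM with control, but 91.0% of its h219-LLG UMIs lay in 1 barcode. Without the deepest members it had 197 and 357 CPM. Rab38, a GTPase that carries pigment enzymes to the melanosome, had 384 and 226 CPM. Trpm1, a cation channel whose gene Mitf drives, had 377 and 254 CPM, and Syngr1, a vesicle protein, 284 and 198 CPM. Myo5a, the motor that moves melanosomes along actin, had 277 and 183.5 CPM, and it was named after its values were seen.

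Other genes of the list were too sparse for that minimum and were picked from it after their values were seen. For Tyr 26 UMIs were counted with h219-LLG and 6 with control, and for Mlph, which links Rab27a to Myo5a, 22 and 4. Slc45a2 and Slc24a5, transporters of the melanosome, had 46 and 44 UMIs with h219-LLG against 3 and 5 with control, with 84.8% and 81.8% of the h219-LLG UMIs in 1 barcode. Sox10, a defining transcription factor of the lineage, was low, with 9 UMIs in 5 members with h219-LLG and 4 UMIs in 4 members with control. Ednrb, an endothelin receptor of the neural crest and of melanocytes, was at 0 UMIs in the members of both libraries, where 3 counts would be 21.3 CPM with h219-LLG and 42.3 CPM with control. Cdkn2a, a tumor suppressor that B16 cells are known to lack, was also at 0.

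**Figure D2:**
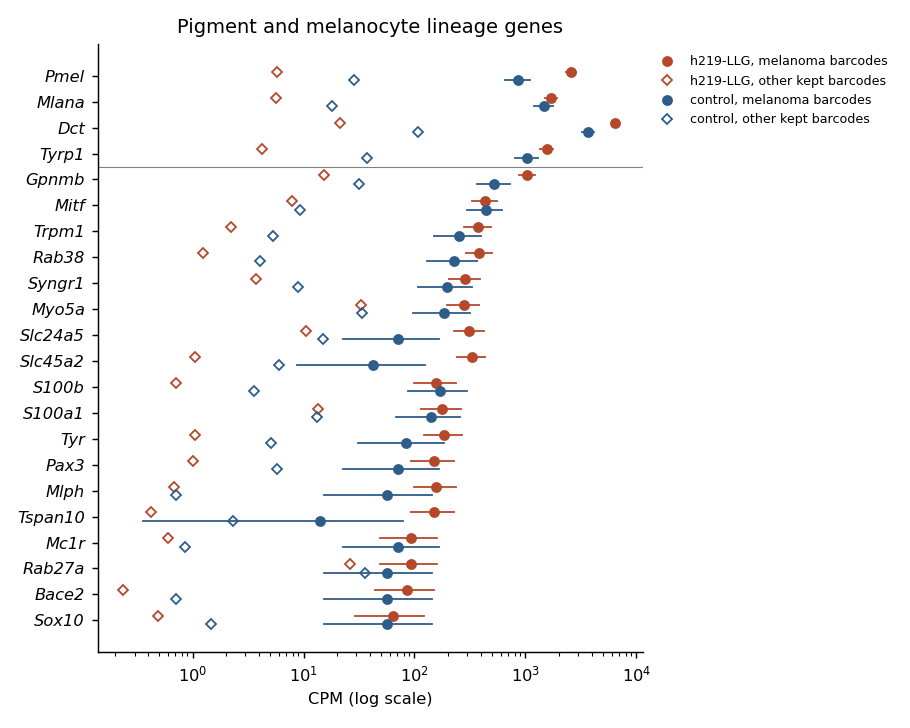
CPM (log axis) of the 4 pigment genes of the rule (above the line) and of melanocyte genes the rule did not use (below it), with filled points for melanoma barcodes and their exact 95% Poisson intervals and open diamonds for other kept barcodes, in h219-LLG (red) and control (blue). For Mitf the filled points lie at 434 and 437.5 CPM and the diamonds at 7.81 and 9.21 CPM.

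Pigment RNA was not confined to the members. In T cells, taken as kept barcodes with at least 2 UMIs of the CD3 genes and none of Cd79a or Csf1r, a Dct UMI was seen in 0.958% (h219-LLG) and 2.34% (control), where the median depth was 5812 and 6915 UMIs. The share of Dct among pigment UMIs was 44.6% and 47.4% in T cells, and 43.6% and 50.3% in members without the deepest ones. At a common depth of 500 UMIs, at least 1 pigment UMI was left in 87.2% (74.3 to 95.2) of members with h219-LLG and 93.5% (82.1 to 98.6) with control. In T cells it was left in 0.232% and 0.490%, and in other kept barcodes under 2000 UMIs in 3.32% (1.60 to 6.03) and 10.8% (6.92 to 15.95). A sum of at least 2, as the rule asks, was left in 70.2% and 73.9% of members and in 0 of 3445 and 0 of 2651 T cells, which allows shares of up to 0.0871% and 0.113%, taken as 3 cells of the total.

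The most pigmented barcodes of the control library were not members. Besides the deepest member, 3 kept barcodes had at least 1000 pigment UMIs and were left out for 1 or 2 immune UMIs. The h219-LLG one had 125281 UMIs, 1342 of them pigment UMIs, and 1 Ptprc UMI. The control ones had 286202 UMIs with 5317 pigment UMIs and 1 Cd79a UMI, and 150343 UMIs with 1708 pigment UMIs and 1 UMI each of Ptprc and Cd79a. Their leukocyte genes, a list of 15 such as Laptm5, Coro1a and Cd52, summed to 479 CPM in the h219-LLG barcode and to 545 and 652 CPM in the control barcodes, against 455 CPM in the deepest h219-LLG member and 8998 and 8294 CPM in other kept barcodes of the libraries. Of the 4 barcodes with at least 1000 pigment UMIs the rule thus kept 1, with h219-LLG, and the closing section gives ratios of lists, and of genes past 2-fold, that turned when the other 3 were added.

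Markers of lymphocytes were low in members, and myeloid markers less so. The leukocyte list summed to 1137 CPM with h219-LLG and 833 CPM with control, 0.126 and 0.1004 of the level in other kept barcodes. Without the deepest members it stood at 1909 CPM with h219-LLG, 0.212 of the rest, and at 845 CPM with control. No leukocyte UMI was seen in 16 members with h219-LLG and 27 with control, whereas leukocyte UMIs outnumbered melanocyte list UMIs in 8 and 4 members. The T cell list summed to 56.9 and 98.8 CPM over 6 of its 9 genes (the others were not analysed here), the B cell list to 14.2 and 28.2 CPM over 5 of 8, and the NK cell list to 7.11 and 14.1 CPM. The rule asks for 0 UMIs of Ptprc, Cd3e and Cd79a, so low T and B cell lists are partly set by it. In kept barcodes with no immune UMI and a pigment sum of 0, the T cell list stood at 626 and 345 CPM. The B cell list stood there at 133 and 139 CPM. In other kept barcodes these lists stood at 1490 and 1514 CPM, and at 938 and 888 CPM. Fibroblast, keratinocyte and plasmacytoid dendritic cell lists were at 0 in both libraries, with Col1a1, Pdgfra, Krt5 and Krt14 among them. Neutrophil, endothelial, Schwann and erythroid lists gave 3, 4, 10 and 3 UMIs in h219-LLG members and 0, 0, 1 and 14 in control members, and the platelet list 15 and 19. Not all of these sparse lists were below the rest. The platelet list stood at 107 and 268 CPM, against 105 and 94.3 CPM in other kept barcodes, and the Schwann list at 71.1 and 14.1 CPM, against 72.6 and 71.5 CPM. Neutrophil, endothelial and erythroid lists were below other kept barcodes in both libraries. The myeloid list reached 1059 and 1750.1 CPM, against 4330 and 2982 CPM in other kept barcodes, and 2227.5 and 2015 CPM without the deepest members. Its leading gene Lyz2, the lysozyme of macrophages and neutrophils, had 60 UMIs in 11 h219-LLG members and 73 UMIs in 3 control members, where 1 barcode held 89.0% of them.

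The level of leukocyte genes was lower at higher pigment sums, though not at every step. Among kept barcodes without an immune UMI in the h219-LLG library, the leukocyte list stood at 6337 CPM at a pigment sum of 0 and at 3333 CPM at a sum of 1. It stood at 2352 CPM in members with a sum of 2, at 2984 CPM at 3 to 4 and at 1315 CPM at 5 or more without the deepest. In the control library the same steps gave 4885, 2954, 1341, 1671 and 271 CPM. Melanocyte list genes were mostly higher at higher sums, with 385, 1010, 2912, 1694 and 5037 CPM with h219-LLG and 400, 2187, 2309, 2406 and 2925 CPM with control. Myeloid genes followed no such order. They stood at 5152 CPM in h219-LLG members with a sum of 2, 3065 CPM at 3 to 4 and 476 CPM at 5 or more without the deepest, and in control members at 149, 7953 and 90.5 CPM. Summed over h219-LLG members with a sum of 2 and over control members with 3 to 4, they thus stood above their level in other kept barcodes, and their part in the members' values was not tested. The control value at 3 to 4 rested on 119 UMIs in 12 members, and 1 barcode held most of the Lyz2 UMIs of control members, as given above. Pigmented barcodes that an immune UMI had left out, without the pigment-rich ones, had 8633 and 8218 CPM of leukocyte genes and 403 and 238 CPM of melanocyte genes.

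Most members held little mitochondrial RNA and little of a nuclear RNA. The median share of mitochondrial UMIs was 1.43% with h219-LLG and 0.862% with control, against 4.36% and 3.699% in other kept barcodes. It was under 0.5% in 17 of 47 members (36.2%, 22.7 to 51.5) with h219-LLG and 22 of 46 (47.8%, 32.9 to 63.1) with control. Since members are shallow, the closer comparison is with other kept barcodes under 2000 UMIs, of which 16.9% (12.9 to 21.7) and 18.2% (13.2 to 24.2) were under 0.5%. The rule caps this share at 10%, so that these values are limited by it. Of barcodes that met the rest of the rule, 28 (37.3%) with h219-LLG and 30 (39.5%) with control had 10% or more, up to 76.9% and 94.3%, against 13.6% and 5.71% of other barcodes. Among barcodes under 2000 UMIs the order was the other way, with 40.6% (28.5 to 53.6) and 35.6% (23.5 to 49.1) of those that met the rest of the rule at 10% or more, against 77.1% (74.8 to 79.4) and 56.5% (51.9 to 61.1) of others.

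Malat1, a long noncoding RNA that stays in the nucleus, was chosen for description after its values were seen. Its median share of UMIs was 0.140% in members with h219-LLG and 0% with control, against 3.07% and 3.22% in other kept barcodes. No Malat1 UMI was seen in 9 of 47 members (19.1%, 9.15 to 33.3) with h219-LLG and 26 of 46 (56.5%, 41.1 to 71.1) with control. In other kept barcodes under 2000 UMIs this held for 7.97% (5.18 to 11.6) and 22.7% (17.1 to 29.0). Thinned to 500 UMIs, Malat1 was seen in 51.1% (36.1 to 65.9) and 21.7% (10.9 to 36.4) of members, in 85.0% and 70.0% of those shallow barcodes and in 99.7% and 99.9% of B cells. B cells were kept barcodes with at least 2 UMIs summed over Cd79a, Cd79b and Ms4a1 and none of Cd3e or Csf1r. In the control library they include the excluded pigment-rich barcode of 286202 UMIs. The deep pigmented barcodes had some Malat1, 0.280% of UMIs in the deepest h219-LLG member, 0.864% in the excluded h219-LLG barcode and 0.808% and 2.29% in the excluded control ones. A single control member held 659 of the 749 Malat1 UMIs of its library's members, so the summed ratio of 0.270 (0.238 to 0.305) does not describe the typical member. Among members with a pigment sum of at least 5 the ratio was 8.235, but there the deepest h219-LLG member held 209 Malat1 UMIs and another 95. Over all members but the deepest of each library it was 0.240. That set still holds the control member with 659 Malat1 UMIs, so this value does not describe the typical member either.

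**Figure D3:**
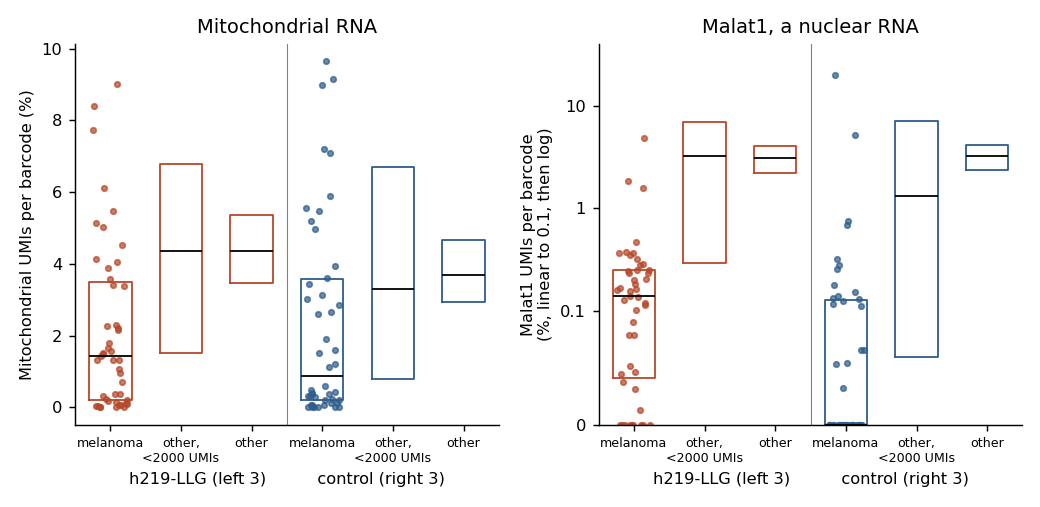
Share of UMIs per barcode (%) from mitochondrially encoded genes (left, linear axis) and from Malat1 (right, axis linear up to 0.1% and then logarithmic), with points for melanoma barcodes, boxes from the lower to the upper quartile and a line at the median, for melanoma barcodes, other kept barcodes under 2000 UMIs and all other kept barcodes, with h219-LLG in the left 3 and control in the right 3 columns. The Malat1 median lies at 0.140% and 0% in melanoma barcodes, against 3.07% and 3.22% in all other kept barcodes.

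Beside melanocyte genes, genes of sugar breakdown and of redox and iron handling were higher in members than in other kept barcodes, most of which were lymphocytes. Of 579 genes with at least 50 UMIs over members, 96 (16.6%) were over 4-fold above other kept barcodes in both libraries, and 1 (0.173%) was over 4-fold below. Since the rule picked these cells by their counts, this contrast is a description and no test. All 12 of the glycolysis and hypoxia genes that reached the minimum, of 25 listed, were among the 96. Their median difference from other kept barcodes was 3.30 with h219-LLG and 3.31 with control on the log2 scale, against 1.07 and 0.92 over all measured genes. Summed, the list stood in h219-LLG members at 23899 CPM (23098 to 24721) and in control members at 27945 CPM (26727 to 29203), against 2946 and 3251 CPM in other kept barcodes and 6111 and 6658 CPM in myeloid cells. At 500 UMIs per barcode a UMI of the list was seen in 97.9% and 97.8% of members, 86.6% and 87.0% of myeloid cells and 68.8% and 71.9% of other kept barcodes under 2000 UMIs. Gapdh, the glyceraldehyde phosphate dehydrogenase of glycolysis, led it with 6035 and 9400 CPM in members, against 780 and 868 CPM in the rest. The glycolytic enzymes Aldoa (2303 and 3218 CPM), Pkm (2097 and 2075 CPM), Eno1 (1813 and 1228 CPM) and Pgam1 (1528 and 1171 CPM) were 7 to 12 times above the rest in both libraries. Mif, a cytokine counted with this list as a target of hypoxia factors, had 2879 and 3274 CPM.

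The list stayed above other kept barcodes without the deepest member of each library, at 20881 and 24126 CPM. In the deepest h219-LLG member it stood at 26566 CPM, with 1984 of the 3362 list UMIs of h219-LLG members. In the deepest control member it stood at 53214 CPM, with 495 of the 1980 list UMIs of control members. It was mostly higher at higher pigment sums, with 7274, 13131, 12600, 20244 and 25239 CPM at sums of 0, 1, 2, 3 to 4 and 5 or more without the deepest with h219-LLG, and 8396, 18531, 18175, 25463 and 25932 CPM with control.

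The redox, iron and metallothionein list summed to 22968 CPM in members with h219-LLG and 24064 CPM with control, against 7309 and 7934 CPM in other kept barcodes. In myeloid cells it stood at 18763 and 20917 CPM, closer to members than the rest was, and 4 of its 9 measured genes were among the 96. The ferritin chains Ftl1 and Fth1, which store iron, led it with 7912 and 7087 CPM with h219-LLG and 8299 and 7254 CPM with control. Mt1 and Mt2, metallothioneins that bind zinc and copper, were lower in level but further above the rest, Mt1 by 11.4-fold and 12.6-fold and Mt2 by 19.7-fold and 17.2-fold. Txn1, the thioredoxin that reduces protein disulfides, had 1287 and 903 CPM. Among lysosomal genes Cd63, a tetraspanin that also sorts Pmel in melanosomes, stood at 924 and 706 CPM against 49.7 and 51.0 CPM. Sparc, a matrix protein of the invasive state list, had 178 and 423 CPM against 1.55 and 3.37 CPM, although with h219-LLG 84.0% of its UMIs lay in 1 of 5 barcodes. Its ratio was 0.420 (0.237 to 0.738), and 0.149 (0.0377 to 0.432) without the deepest members. Vim, the mesenchymal intermediate filament, was seen in 37 members with h219-LLG and 35 with control at 1088 and 1948 CPM, against 737 and 772 CPM in the rest.

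Cell cycle genes were detected as well. The list of 27 summed to 3106 CPM with h219-LLG and 3430 CPM with control, against 1147 and 1028 CPM in other kept barcodes, but 1 of its genes, the chromatin protein Hmgb2, had enough UMIs to be measured alone. Hmgb2 stood at 562 and 579 CPM, against 440 and 355 CPM in the rest. At 500 UMIs per barcode a UMI of the list was seen in 68.1% (52.9 to 80.9) of members with h219-LLG and 71.7% (56.5 to 84.0) with control, in 31.8% and 29.5% of B cells, 37.3% and 45.7% of myeloid cells and 39.9% and 41.9% of other kept barcodes under 2000 UMIs. No phase was called for single barcodes at this depth.

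**Figure D4:**
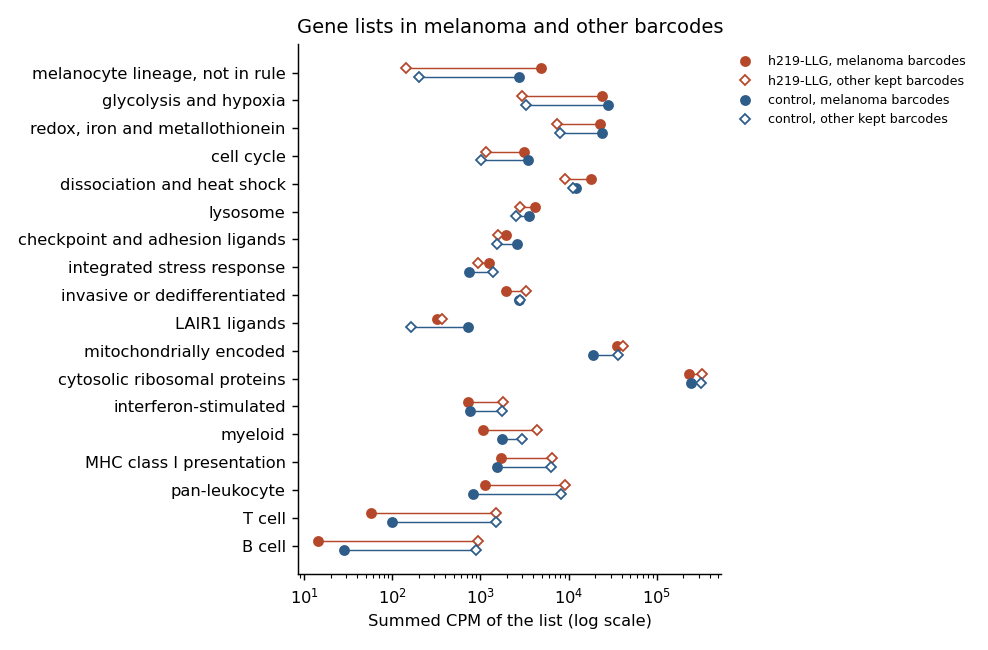
Summed CPM (log axis) of gene lists in melanoma barcodes (filled points) and in other kept barcodes (open diamonds), joined by a line, for h219-LLG (red) and control (blue). Melanocyte, glycolysis and redox lists lie to the right of other kept barcodes in both libraries, at 4848 and 2738, 23899 and 27945, and 22968 and 24064 CPM, and MHC class I and leukocyte lists lie to the left.

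B2m and the summed MHC class I list, through which T cells see a tumor cell, were low in members. The MHC class I list of 13 genes summed in h219-LLG members to 1706 CPM (1497 to 1936) and in control members to 1553 CPM (1276 to 1871), against 6419 and 6274 CPM in other kept barcodes. B2m, the light chain of all classical class I molecules, was the gene over 4-fold below the rest in both libraries, with 306 CPM (43 UMIs in 17 members) and 423 CPM (30 UMIs in 14 members) against 2019 and 2082 CPM. The heavy chain H2-K1, named after its values were seen, had 14 UMIs in h219-LLG members and 15 in control members, or 99.5 and 212 CPM against 1482 and 1363 CPM. H2-D1, another heavy chain named so, had 12 and 25. Calr and Pdia3, chaperones that help to load class I molecules and act on many other proteins, stood above the rest with h219-LLG, at 647 and 490.5 CPM against 326 and 197.5 CPM, and below it with control, at 226 and 155 CPM against 348 and 205 CPM. Their h219-LLG UMIs lay to 81.3% and 75.4% in 1 barcode, and without the deepest members the ratios were 1.06 (0.497 to 2.27) for Calr and 1.44 (0.637 to 3.41) for Pdia3. Interferon-stimulated genes, 25 in the list and 18 of them with a UMI, summed to 718 CPM with h219-LLG and 762 CPM with control, against 1803 and 1758 CPM in the rest, and none reached 50 UMIs. Their ratio h219-LLG over control was 0.942 (0.67 to 1.34), and 0.563 (0.351 to 0.890) without the deepest members, at 485 and 861 CPM. Among members with a pigment sum of at least 5 it was 2.80, so its direction depended on the members taken.

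Checkpoint and LAIR1 ligands were measured as far as the depth allowed. Cd274, which encodes PD-L1, was seen in 0 h219-LLG members and, by 1 UMI, in 1 control member, and Ceacam1, an adhesion ligand of T cells, had none. Lgals1, a galectin that binds glycans on T cells, had 1216 CPM in 30 members with h219-LLG and 1087 CPM in 29 with control, 2.76-fold above the rest in each. Lgals3, another galectin, had 618 CPM with h219-LLG and 1440 CPM with control, a ratio of 0.430 (0.319 to 0.578), and of 0.944 (0.689 to 1.29) without the deepest members. Of the 16 ligands of LAIR1 listed, the fibrillar collagen genes Col1a1, Col1a2 and Col3a1 and the membrane collectin Colec12 were at 0 in both libraries. A UMI was seen for 5 genes, the complement genes C1qa, C1qb and C1qc and the basement membrane collagens Col4a1 and Col4a2. Summed, the list stood in h219-LLG members at 320 CPM (233 to 428) and in control members at 720 CPM (536 to 946). The ratio was 0.444 (0.291 to 0.677), and 0.768 (0.498 to 1.18) without the deepest members, an interval that holds 1. It was 2.24 in other kept barcodes. C1q is made by macrophages, and the part of macrophage RNA in the members' ratio was not tested. Without members in which leukocyte UMIs outnumbered melanocyte list UMIs, the ratio in members was 1.99. That value is given without counts or an interval, so its counting error is not shown. Lair1 itself had 0 UMIs in members of both libraries, and the human transgene was not analysed here.

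Between the libraries, 48 of the 579 genes (8.29%) were over 2-fold higher in members with h219-LLG and 11 (1.90%) over 2-fold lower. For 41 of the 48, a single barcode held over 50% of the h219-LLG UMIs, as it did for 342 of all 579. Without the deepest member of each library, 334 genes reached the minimum, and 8 (2.40%) were over 2-fold higher and 3 (0.898%) over 2-fold lower. Of the 48 and of the 11, 8 each still reached the minimum, and 3 each were still past 2-fold in their direction. The median log2 ratio over all measured genes was 0.10, and 0.11 without the deepest.

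Stress genes show how far 1 barcode reached. Jun and Fos, subunits of the AP-1 factor, had 165 and 46 UMIs with h219-LLG and 5 and 4 UMIs with control, but 97.0% and 91.3% of the h219-LLG UMIs lay in 1 barcode. Both ratios were 0.933 without the deepest members. The dissociation and heat shock list summed to 18098 CPM with h219-LLG and 12208 CPM with control, a ratio of 1.48 (1.37 to 1.60), and 0.962 (0.870 to 1.06) without them. Hsp90ab1, a chaperone of signaling proteins, had 4706 and 3246 CPM, and Hspa8, the constitutive heat shock protein of the cytosol, 1607 and 1990.0 CPM. Hspa5, the chaperone of the endoplasmic reticulum, had a ratio of 2.13 (1.26 to 3.78), and of 0.991 (0.471 to 2.10) without the deepest. Mitochondrially encoded genes likewise summed to a ratio of 1.90 (1.79 to 2.02), and to 0.866 (0.800 to 0.937) without them, and mt-Atp6 and mt-Co1, subunits of ATP synthase and of cytochrome oxidase, had ratios of 2.34 and 2.275, and of 1.11 and 0.695 without the deepest.

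A few differences kept their direction without the deepest members, though they were smaller. Lars2, the mitochondrial leucyl-tRNA synthetase, had 640 CPM in 36 members with h219-LLG and 3049 CPM in 35 members with control, a ratio of 0.210 (0.162 to 0.270), and of 0.348 (0.263 to 0.454) without the deepest. AY036118, a noncoding transcript, had 924 and 2851 CPM, a ratio of 0.324 (0.258 to 0.406), and of 0.581 (0.459 to 0.732) without the deepest, which is under 2-fold. With the excluded pigment-rich barcodes added, its ratio was 1.21. Gm42418, a transcript named after its values were seen, had 18326 CPM with h219-LLG and 73122 CPM with control, and it took over 40% of UMIs in 0 and 3 members, up to 20.1% and 62.8%. Its ratio was 0.251 (0.239 to 0.263), and 0.435 (0.414 to 0.457) without the deepest. Both ratios include the 3 control members over 40%, which had 2821, 1017 and 895 UMIs. They therefore do not describe the typical member. Gm42418 and AY036118 are annotated over a ribosomal DNA repeat, and reads of ribosomal RNA can be counted to them. All 3 transcripts were also lower with h219-LLG in other kept barcodes, with ratios of 0.653 for Lars2, 0.811 for AY036118 and 0.713 for Gm42418. The part of such library-wide differences in the members' values was not tested.

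Of the lists, melanocyte genes outside the rule had a ratio of 1.77 (1.51 to 2.09), and of 1.44 (1.18 to 1.76) without the deepest members. It turned to 0.709 with the excluded pigment-rich barcodes added. In other kept barcodes it was 0.719 with those barcodes among them and 1.05 without them. Glycolysis genes had 0.855 (0.809 to 0.905) and 0.866 (0.804 to 0.932), against 0.906 in the rest and 0.979 in the rest without the pigment-rich barcodes. Redox genes had 0.955 (0.900 to 1.01) and, without the deepest, 1.24 (1.16 to 1.33). For cell cycle genes the values were 0.906 (0.773 to 1.06) and 1.12 (0.943 to 1.34), and for MHC class I genes 1.10 (0.873 to 1.39) and 0.766 (0.570 to 1.03), with intervals that hold 1 in each case. Leukocyte genes had 1.37 (1.01 to 1.87), and 2.26 (1.62 to 3.19) without the deepest, and Arhgdib, the gene of this list with enough UMIs to be measured alone, had 1.75 (1.04 to 3.09) and 2.87 (1.54 to 5.67). With the mitochondrial limit set at 20% the ratio of leukocyte genes turned to 0.649. Leukocyte genes thus differed between the libraries beside these values, in a direction that depended on this limit, and their part in them was not tested. Integrated stress response genes, led by Hspa5, had 1.69 (1.23 to 2.34) and 1.30 (0.885 to 1.93), lysosome genes 1.20 (1.03 to 1.40) and 0.928 (0.764 to 1.13), and genes of the invasive state 0.722 (0.599 to 0.872) and 0.793 (0.624 to 1.01). Checkpoint ligands, mostly galectin RNA, had 0.734 (0.607 to 0.889) and 1.12 (0.898 to 1.39). Cytosolic ribosomal protein genes, with Rplp1 at 6227 and 6662 CPM, summed to a ratio of 0.938 (0.921 to 0.955), and 1.10 (1.08 to 1.13) without the deepest.

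**Figure D5:**
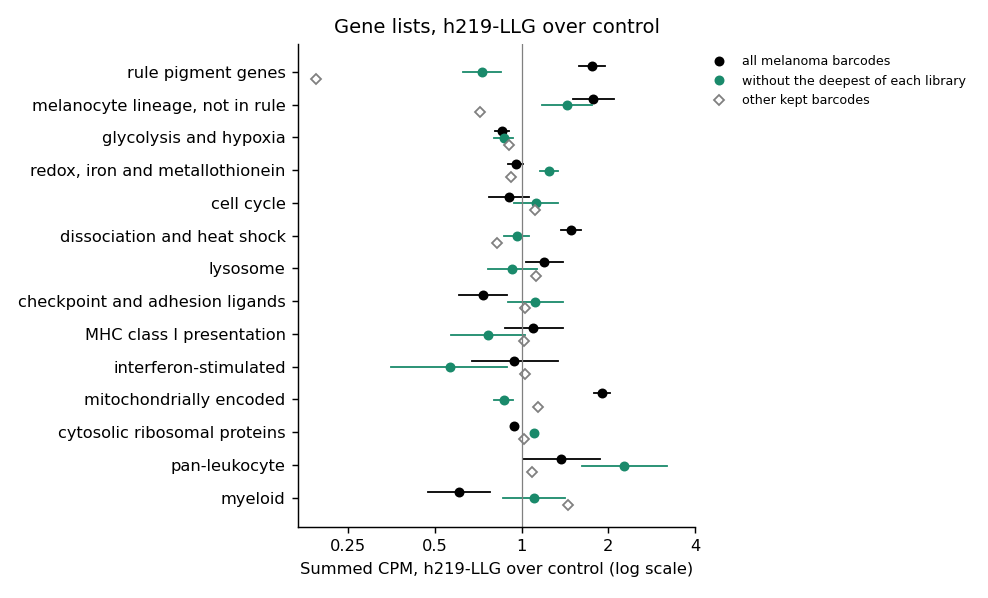
Ratio of summed CPM, h219-LLG over control (log axis, line at 1), of gene lists in all melanoma barcodes (black) and without the deepest of each library (green), each with its 95% interval from the binomial split, and in other kept barcodes (open diamonds). Pigment genes lie at 1.76 with the deepest barcodes and at 0.728 without them, and glycolysis genes at 0.855 and 0.866.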

How the data were processed

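Live CD45+ cells of B16 tumors were profiled by 10x Genomics 3' scRNAseq, 1 library per antibody. The authors deposited UMI counts for each gene and barcode as whole numbers, not normalized, with no barcode under 500 UMIs. The submitters' processing notes name Cell Ranger 5.0.0 and mm10. The antibody of each library comes from its title.

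UMIs of members were summed per library and divided by the sum to give CPM, and genes with at least 50 UMIs over members of both libraries were measured. Python 3.11.15, numpy 2.4.6, scipy 1.17.1 and matplotlib 3.10.9 were used. No p-value was computed, since cells of 1 library are not replicates. No doublet caller was run and no doublets were removed. The binomial interval was tried on simulated Poisson counts. These lack the concentration of UMIs in single barcodes seen here, so the trial cannot show how well the intervals hold for these data. Gene coordinates are from GENCODE vM21 on mm10, and promoter windows from RefSeq, in which Pmel and Mlana have no entry.

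The members and the gene lists were chosen with earlier results of these data known. Genes were named by a rule: the 4 pigment genes, per list up to 4 of highest CPM and the 2 highest and 2 lowest ratios h219-LLG over control, Lair1 and list genes at 0, and over all genes the 15 highest ratios over other kept barcodes and the 10 highest and 10 lowest ratios between libraries among those with at most 25% of UMIs in 1 barcode of a library, which left 3 genes (Lars2, AY036118 and Hspa9). Genes named beside the rule are said to be. Hspa9, a mitochondrial chaperone, had 242 CPM with h219-LLG and 268 CPM with control. Not every gene the rule allows is printed. Other limits on UMIs, genes, mitochondrial share and pigment sum, other scalings, and sums without single barcodes were tried.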

Additional observations from a re-analysis of the deposited data

How the results depend on the processing

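The ratio of member shares stayed on its side of 1 and within 1.5 times under the 11 alternatives tried for it. At a minimum of 1000 UMIs, with 28 and 21 members, it was 0.997, so that hardly any difference was left. Dropping the minimum of UMIs could not change it, since no barcode lay under 500 UMIs. Counts of genes depended on the settings. Of genes over 2-fold higher with h219-LLG, over 2-fold lower, over 4-fold above other kept barcodes and over 4-fold below, which were 48, 11, 96 and 1, there were 231, 54, 218 and 10 at a minimum of 20 UMIs and 13, 7, 62 and 0 at a minimum of 100, where by construction more or fewer genes are measured. Scaling without the 50 most abundant genes gave 153 above and 0 below the rest. Means of per-barcode CPM gave 27 genes over 2-fold higher and 6 below the rest. Without the deepest members there were 8 higher, 3 lower and 61 above the rest. Genes below the rest were 2 at a pigment sum of at least 5, 3 with at least 2 pigment genes and 3 at up to 20% mitochondrial UMIs, where 27 were over 2-fold lower. Chosen after seeing the data, adding the pigment-rich excluded barcodes gave 80, 253, 370 and 18, leaving out barcodes with more leukocyte than melanocyte UMIs gave 2 below the rest, and leaving out the deepest members and those over 40% Gm42418 gave 6 higher and 1 lower.

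Ratios of genes and lists past 2-fold turned as follows. Per-barcode means gave 0.780 for Calr, 1.01 for Lyz2 and 0.847 for mt-Co1. Without the deepest members the ratio was 0.704 for Pmel, 0.933 for Jun and Fos, 0.991 for Hspa5 and 0.695 for mt-Co1. At a pigment sum of at least 5 it was 2.31 for Lyz2 and 8.235 for Malat1, and with at least 2 pigment genes 1.44 for LAIR1 ligands and 2.66 for Lyz2. With the pigment-rich barcodes it was 1.31 for LAIR1 ligands, 0.976 for Pmel, 0.541 for Jun, 0.188 for Fos, 1.24 for Sparc, 1.59 for Lyz2, 0.945 for mt-Atp6, 0.865 for mt-Co1 and 1.21 for AY036118. Without leukocyte-rich barcodes it was 1.99 for LAIR1 ligands, 1.99 for Lyz2 and 1.69 for Malat1. Without the deepest and Gm42418-rich ones it was 0.726 for Pmel, 0.976 for Calr, 0.861 for Jun and Fos and 0.651 for mt-Co1. Of the other values, 37 of the 106 of single genes that moved beyond counting error crossed 1, as did 43 of 88 of lists, while 524 and 146 moved by less than counting error, 28 and 2 of them across 1. With the pigment-rich barcodes the ratio was 0.779 for pigment genes, 0.709 for melanocyte genes, 1.12 for checkpoint ligands, 1.16 for interferon-stimulated genes, 0.930 for heat shock, 0.958 for lysosome, 2.24 for myeloid, 0.982 for mitochondrially encoded and 1.16 for ribosomal protein genes, which turned, and 1.75 for MHC class I and 0.578 for cell cycle genes, which did not. At up to 20% mitochondrial UMIs it was 0.649 for leukocyte genes. The cause was not tested where settings other than the set of barcodes or genes changed. LAIR1 ligands and Fcer1g at a pigment sum of at least 5, and Fcer1g without leukocyte-rich barcodes, gave no ratio because control was at 0. No paired analysis was possible because each condition had 1 library.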

Other observations

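Nuclear genes of the respiratory chain, a group picked by their symbols after their values were seen, stood above other kept barcodes in members. Of 68 such genes with at least 50 UMIs (complex subunits with symbols such as Ndufa4, Cox5b, Uqcrq and Atp5g1), 66 were above the rest in both libraries and 20 over 4-fold, where of all 579 measured genes 418 (72.2%) were above the rest and 96 (16.6%) over 4-fold. They had a median log2 difference of 1.81 with h219-LLG and 1.72 with control, where all measured genes had 1.07 and 0.92. Ndufa4, a subunit of cytochrome oxidase, had 2125 CPM in members with h219-LLG and 1341 CPM with control, against 306 and 241 CPM in other kept barcodes. Of the 12 mitochondrially encoded genes, 1 was above the rest in both libraries, with medians of -0.17 and -0.96, but the rule's limit on mitochondrial UMIs bears on these genes, so they are no independent measure.

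Other genes high in members and near 0 elsewhere, also picked after their values were seen, were the prostaglandin D synthase Ptgds, with 1130.2 CPM in 20 members with h219-LLG and 804.5 CPM in 21 with control against 2.70 and 31.4 CPM in the rest, the small heat shock protein Cryab, with 412 and 296 CPM against 2.00 and 3.37 CPM, and the glutathione transferase Gsta1, with 370 and 282 CPM against 1.11 and 6.70 CPM. The carbonic anhydrase Car6 had 803 CPM with h219-LLG, 98.2% of it in 1 barcode, and 395 CPM over 11 members with control.

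The chemokine gene Cxcl10, named for the same reason, had 44 UMIs with h219-LLG, 97.7% of them in 1 barcode, and 1 UMI with control. Pigmented barcodes past the limit on mitochondrial UMIs had 2803 CPM of melanocyte list genes with h219-LLG and 1170 CPM with control.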
